A study of Mus musculus with 12 samples.

Results

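Retinas of *E168d2neo/d2neo* mice, which have no intact copy of the gene for the cone-rod homeobox factor CRX, were compared with WT retinas on 3 bead arrays per genotype. Every probe that at least 1 of these 6 arrays detected (detection p-value under 0.05) was taken, which gave 21971 of the 45281 probes of the array. The member nearest to this limit had a lowest detection p of 0.0491, and the nearest probe outside had 0.0502. Of the members, 12547 were detected on all 6 arrays, 1293 on WT arrays only and 3272 on *E168d2neo/d2neo* arrays only. A total of 18380 members carried 1 gene symbol, for 11948 of the 19083 genes named on the array.

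All mice were at postnatal day 10 (P10) and all lines had been backcrossed to *C57BL6/J*. The *E168d2* allele was made in embryonic stem cells of another mouse strain and carries a deletion of 2 bases that shifts the reading frame, so that the protein keeps its DNA-binding homeodomain and loses most of its transactivation domain. The *neo* allele used here still holds the neomycin cassette in an intron. The study states that the mutant allele is expressed less where the cassette is present, so the arrays do not measure the final line without the cassette. For *E168d2neo/d2neo* retinas it reports total *Crx* mRNA above WT by quantitative PCR, and an amount of CRX protein like that of WT. Each array received RNA pooled from the retinas of a male and a female mouse, so n counts pools. The 3 *R90Wneo/Wneo* and 3 *Crx-/-* arrays of the series entered the fit, and *Crx-/-* serves below as a second comparison.

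CRX, a transcription factor with a homeodomain, is made in rods and cones, where it binds short DNA elements around a TAATCC core and raises the transcription of opsins, transducins, phosphodiesterase subunits and other genes of vision. It works with OTX2, which acts before it, and with NRL, which directs cells to the rod fate. P10 lies in the period when mouse photoreceptors build outer segments and ribbon synapses and raise these genes steeply. The allele itself is seen in the pair of genotyping primers that the study designed to tell both forms apart, shown because they carry the sequence difference between the alleles. They share their first 20 bases, and the capitals mark the bases at the 3′ end that differ.
E168 WT-F: catttggagtccagcctcagAG
E168 mut-F: catttggagtccagcctcagGC

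*Crx* (chr7:15865947-15879955, GRCm38.p6, minus strand) was measured by 1 probe. Its log2 signal was 13.65, 13.44 and 13.44 on the WT arrays and 13.66, 14.05 and 13.99 on the *E168d2neo/d2neo* arrays. The lowest *E168d2neo/d2neo* array lay just above the highest WT array, and the log2 difference of 0.39 (SE 0.15, adjusted p = 0.16 in limma) did not pass the test. The allele is a small deletion and where the probe lies relative to it was not determined, so this level does not check the genotype labels. *Otx2* had 11.76 ± 0.15 (SD, n = 3) in WT and a log2 difference of 0.63 (adjusted p = 0.0833), and *Nrl* had 13.74 ± 0.08 and a log2 difference of -0.57 (adjusted p = 0.144).

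Some arrays stood apart before any comparison was made. Mean signal lay between 176 and 394 intensity units, and replicate 1 was the dimmest of the WT and of the *E168d2neo/d2neo* arrays. *E168d2neo/d2neo* replicate 1 had a correlation of log2 signal of 0.942 and 0.945 with its fellow replicates, which had 0.986 with each other. WT replicate 1 had 0.958 and 0.962, and WT replicates 2 and 3 had 0.984. The same *E168d2neo/d2neo* array also carried lens signal. The summed normalized signal of 16 lens genes, most of them crystallins, was 200600 on this array, against 1044 and 1682 on the other *E168d2neo/d2neo* arrays and 2368, 1282 and 2621 on the WT arrays. *Cryba1* reached a log2 signal of 14.93 there and lay between 6.74 and 9.13 on the other arrays. The median log2 difference of the list was 1.60, 0 of the 16 genes were called by limma or passed an unadjusted p of 0.05, and *Cryba1* had a log2 difference of -1.04 once this array was left out. Markers of the retinal pigment epithelium summed to 14480 on WT replicate 1 and to between 5945 and 7617 on the other arrays. The part of lens and pigment epithelium RNA in the differences below was not tested, and results are therefore given with and without these arrays where they changed.

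**Figure D1:**
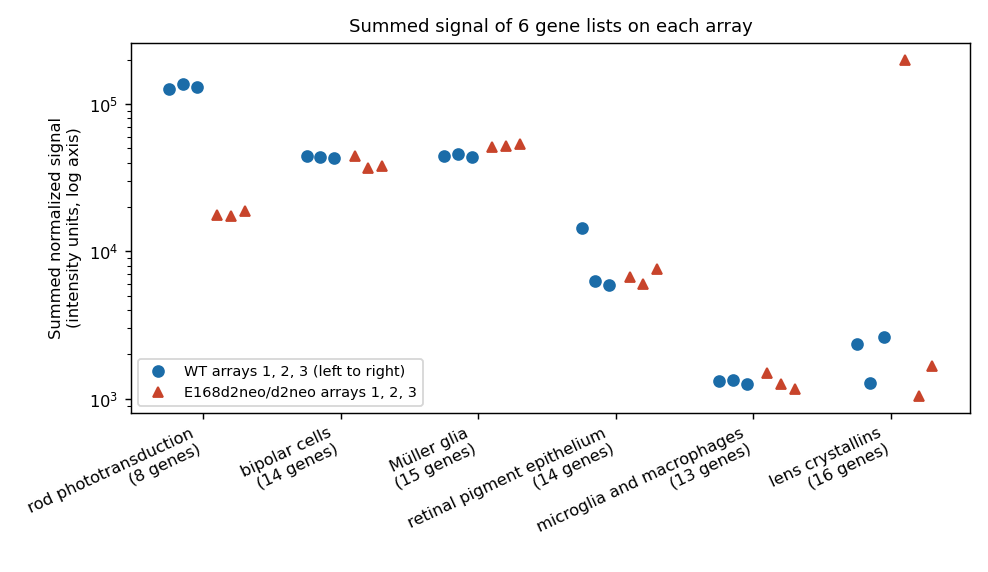
Summed normalized signal (log axis, intensity units) of 6 gene lists on the 3 WT arrays (circles) and the 3 E168d2neo/d2neo arrays (triangles), replicates 1 to 3 from left to right. Rod genes lie lower on all 3 E168d2neo/d2neo arrays, and lens genes reach 200600 on replicate 1 of that genotype alone.

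A change was called where limma gave an adjusted p of 0.05 or lower, over the 24311 probes detected anywhere in the series, together with a difference of 2-fold or more. Of all tested probes 2.24% were called lower in *E168d2neo/d2neo* (545 probes, 389 named genes) and 1.55% were called higher (376 probes, 274 named genes). The falls were the larger changes. Of the probes called lower, 175 changed by 2 or more on the log2 scale, 59 by 3 or more and 16 by 5 or more. Of the probes called higher, 40 changed by 2 or more, 14 by 3 or more and 2 by 5 or more. Another 347 probes passed the adjusted p with a fall under 2-fold, and 324 with a rise under 2-fold.

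Genes with several probes gave the calls in 1 direction. Of 4378 genes with at least 2 member probes, 353 had a call, 113 had at least 2 probes called the same way, 82 had every probe called, and 0 had probes called both ways. The median log2 difference of all members was 0.04. Leaving out *E168d2neo/d2neo* replicate 1, the array with lens signal, gave 641 probes lower and 791 higher, and of the calls with all arrays 481 lower and 306 higher were among them. Without replicate 1 of both genotypes there were 611 and 691. Leaving out *E168d2neo/d2neo* replicate 2 or 3 gave 247 and 244 probes higher. No probe called with all arrays changed sign in any of these settings. That was nearly fixed in advance, since all 545 probes called lower and 374 of the 376 called higher had no overlap of the arrays.

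**Figure D2:**
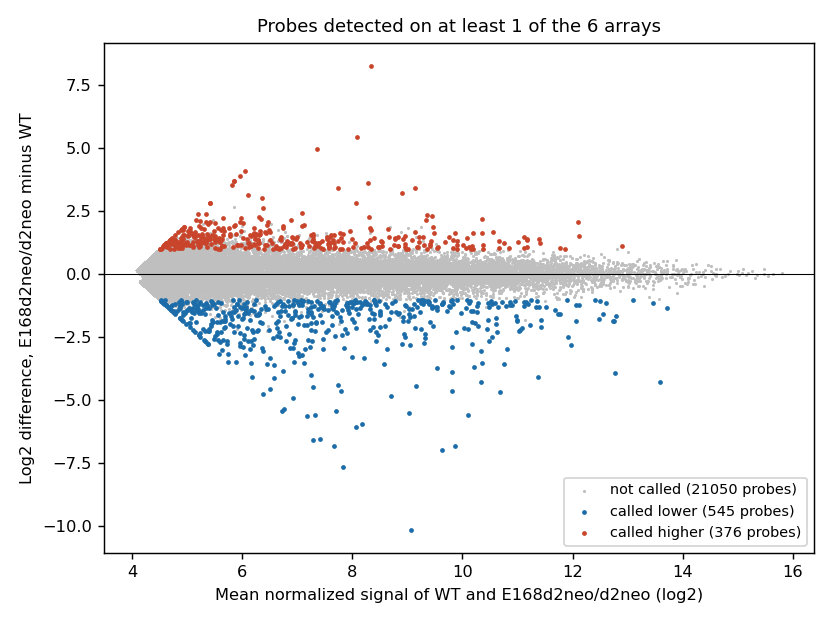
Log2 difference between E168d2neo/d2neo and WT (y axis) against the mean log2 signal of both genotypes (x axis) for the 21971 member probes. Of the 545 probes called lower 175 lie at 2 or more from 0, and of the 376 called higher 40.

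Low signals were set to a floor of 16 intensity units, a log2 value of 4. Where no array of a genotype detected a gene, its fold is a bound, measured against the lowest signal that was detected on each array.

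Every measured gene of rod phototransduction, the cascade by which a photon closes cation channels, was lower. All 8 of 8 were called, with a median log2 difference of -4.01 against 0.01 over all 11914 genes tested, of which 2.75% were called lower and 1.47% higher by their brightest probe. *Gnat1*, the alpha subunit of rod transducin, fell from 15.83, 15.71 and 15.64 to 11.89, 11.12 and 11.38, a log2 difference of -4.27 (SE 0.66, adjusted p = 0.00271). *Pde6a*, a catalytic subunit of the phosphodiesterase that transducin activates, fell from 11.77 ± 0.11 to 6.28 ± 0.63, 44.9-fold (adjusted p = 0.000175). The other catalytic subunit, *Pde6b*, fell far less, from 14.39 ± 0.14 to 13.04 ± 0.15, 2.55-fold (adjusted p = 0.000313).

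The inhibitory subunit *Pde6g* had 14.63, 14.83 and 14.76 in WT and 10.93, 10.66 and 10.84 in *E168d2neo/d2neo*, with a log2 difference of -3.93 (SE 0.17, adjusted p = 4.06e-07). Both subunits of the rod channel of the outer segment fell, *Cngb1* by 16.96-fold (adjusted p = 1e-07) and *Cnga1* by 6.29-fold (adjusted p = 0.000348). *Slc24a1*, the sodium, calcium and potassium exchanger of rods, fell by 4.90 on the log2 scale (adjusted p = 0.000318). *Gnb1*, the transducin beta subunit that is also used outside photoreceptors, had the next smallest change after *Pde6b*, a log2 difference of -1.64 (adjusted p = 0.000372). The groups did not overlap at any of these genes. The same held for all 545 probes called lower. Of all members, 11.8% lay lower and 12.4% higher without overlap.

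The cone genes split. Of 9 measured genes of cone phototransduction 6 were lower and 1 was higher, with a median log2 difference of -2.89. *Pde6h*, the inhibitory phosphodiesterase subunit of cones, had log2 signals of 11.15, 12.10 and 11.70 in WT and was undetected on all 3 *E168d2neo/d2neo* arrays, a fall of at least 120-fold (adjusted p = 1.72e-07). *Opn1mw*, the middle-wavelength cone opsin, fell from 13.18, 13.24 and 12.94 to 6.6, 5.38 and 6.45, 126-fold (adjusted p = 0.00205). *Arr3*, the cone arrestin, had 10.17, 10.21 and 9.95 in WT and 4, 4.96 and 4.6 in *E168d2neo/d2neo*, where 2 of 3 arrays detected it (adjusted p = 3.36e-05).

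*Gnat2*, the cone transducin alpha subunit, fell by less, 3.10-fold (adjusted p = 0.000184), and *Gnb3*, the transducin beta subunit of cones, had a log2 difference of -0.09 (adjusted p = 0.837). *Gngt2*, the transducin gamma subunit of cones, went the other way. Its log2 signal was 10.60, 11.09 and 11.47 in WT and 12.68, 13.33 and 13.41 in *E168d2neo/d2neo*, a 4.25-fold rise (adjusted p = 0.000394), and its other probe was also called higher, with a log2 difference of 2.17. The genes of the 3 transducin subunits of cones therefore gave 3 different results in the same pools. These hold whole retina, so signal of a gene from other cells is not separated from that of cones. No probe that the platform table names for *Opn1sw*, *Cnga3* or *Cngb3* was detected on these arrays. The study itself counts *Opn1sw* among the genes lower on its arrays, and reports a strong fall by quantitative PCR.

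Genes whose proteins end the light response or feed calcium back to it gave mixed results. Of 11 measured, 7 were lower, 4 were not called, 0 were higher, and the median log2 difference was -1.22. *Rcvrn*, the calcium sensor recoverin, fell from 10.86, 11.41 and 10.99 to 5.73, 4.67 and 4.73, a log2 difference of -6.04 (adjusted p = 7.27e-05). *Guca1b* and *Guca1a*, the calcium-binding activators of guanylate cyclase, fell by 5.44 and 3.46 on the log2 scale (adjusted p = 0.00319 and 0.00338). The first of them was detected on 2 of 3 *E168d2neo/d2neo* arrays, as was the second.

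*Grk1*, the G protein-coupled receptor kinase of photoreceptors, had 5.99, 6.59 and 6.73 in WT, was undetected in *E168d2neo/d2neo*, and thus fell by 3.23-fold or more (adjusted p = 0.000285). *Sag*, the rod arrestin, had 14.06 ± 0.25 in WT and 13.09 ± 0.44 in *E168d2neo/d2neo*. Its log2 difference of -0.98 (adjusted p = 0.0294) was under 2-fold, while a second probe of the gene was called lower at -1.57. *Pdc*, phosducin, which binds transducin beta and gamma subunits, had a log2 difference of -0.45 (adjusted p = 0.195).

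**Figure D3:**
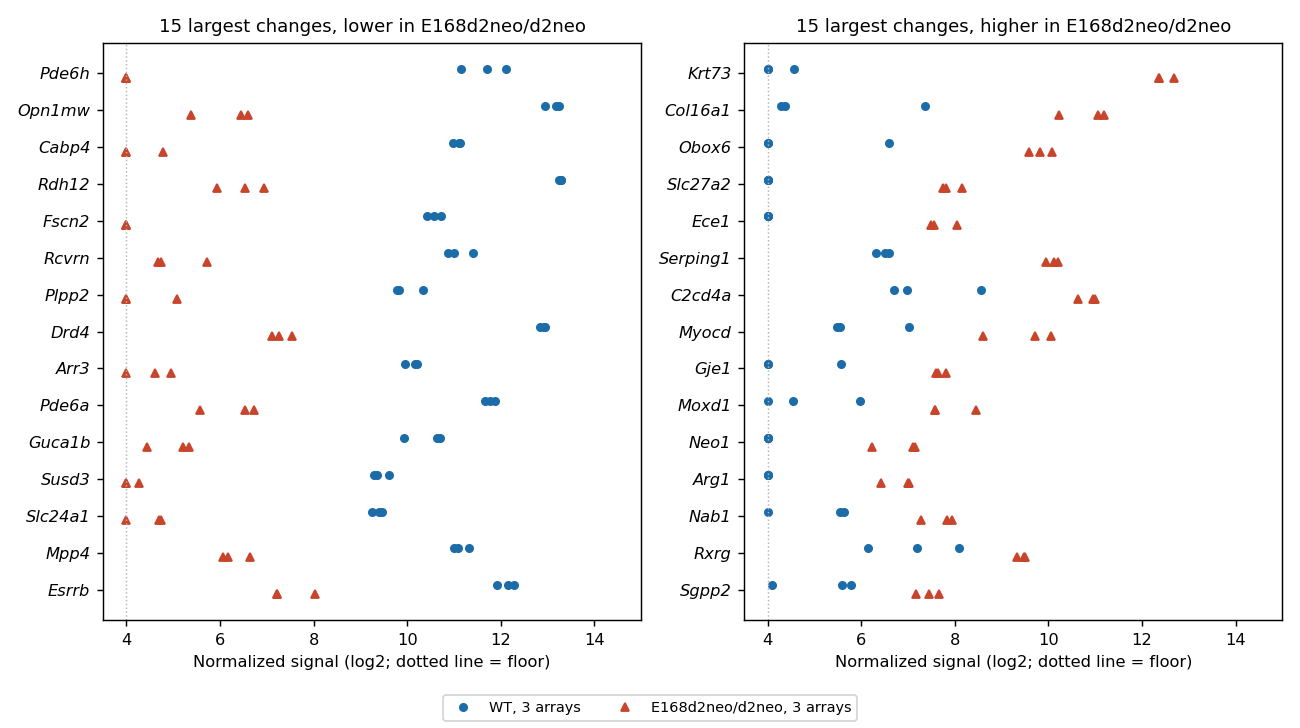
Normalized log2 signal (x axis) of the 15 named genes with the largest falls (left) and the 15 with the largest rises (right) on each of the 3 WT arrays (circles) and 3 E168d2neo/d2neo arrays (triangles), with the floor of 4 as a dotted line. The genotypes do not overlap at any of the 30 genes, which is part of how they were chosen, and Pde6h lies at the floor on all 3 E168d2neo/d2neo arrays.

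The retinoid cycle of photoreceptors, which returns bleached chromophore, had 1 very large fall among small changes. *Rdh12*, which reduces retinaldehydes in the inner segment, had 13.29, 13.25 and 13.27 in WT and 6.93, 5.95 and 6.54 in *E168d2neo/d2neo*, 111-fold lower (SE 0.32 on the log2 scale, adjusted p = 6.84e-07). *Abca4*, which moves retinaldehyde out of the disc, fell 3.67-fold (adjusted p = 0.000461). *Dhrs3*, another short-chain dehydrogenase, completed the 3 of 8 measured genes called lower, with 2 of 3 WT arrays detecting it, and its call was lost without any 1 array other than WT replicate 1. *Rbp3*, the retinoid carrier between photoreceptors and pigment epithelium, had a log2 difference of -0.38 (adjusted p = 0.308), and *Rdh11* had -0.15.

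Genes of outer segment discs were lower at 7 of 11 measured, with 0 higher and a median log2 difference of -2.09. *Fscn2*, a photoreceptor fascin that bundles actin, had 10.56, 10.72 and 10.43 in WT, while no *E168d2neo/d2neo* array detected it, which puts the fall at 56.7-fold or more (adjusted p = 0.00019), although its dimmer second probe had a log2 difference of -0.86 and was not called. *Prph2*, the tetraspanin of disc rims, fell from 12.48 ± 0.09 to 10.39 ± 0.35, 4.26-fold (adjusted p = 0.000135). Its partner *Rom1* fell 2.09-fold (adjusted p = 0.0241), a call that was lost without *E168d2neo/d2neo* replicate 1, WT replicate 2 or WT replicate 3. *Cdhr1*, a cadherin at the base of the outer segment, had a log2 difference of -0.29 (adjusted p = 0.358) at 14.24 in WT. *Myo7a*, the motor mutated in Usher syndrome, fell 5.40-fold (adjusted p = 0.000488).

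At the photoreceptor ribbon synapse, the release site onto bipolar and horizontal cells, 9 of 19 measured genes were lower and 0 were higher, with a median log2 difference of -0.83. *Cabp4*, which tunes the presynaptic calcium channel, had 10.97, 11.12 and 11.14 in WT and 4.78, 4 and 4 in *E168d2neo/d2neo*, where no array detected it, so the fall was at least 80.3-fold (adjusted p = 7.25e-07). The channel itself fell by less, with *Cacna1f* at -1.37 (adjusted p = 0.00051) and *Cacna2d4* at -1.96 (adjusted p = 0.00258) on the log2 scale. *Cplx4*, a complexin of ribbon synapses, and *Slc17a7*, the vesicular glutamate transporter, fell 8.19-fold and 5.57-fold (adjusted p = 0.000421 and 0.000409). *Elfn1*, an adhesion protein of rod terminals, fell 3.64-fold (adjusted p = 0.000107). The other 10 were not called, among them *Ctbp2* (the gene of the ribbon protein RIBEYE) at -0.46 (adjusted p = 0.106) and *Syp* (synaptophysin) at -0.25 (adjusted p = 0.357). Of the 19 genes 15 were lower and 1 was higher at an unadjusted p under 0.05 in limma.

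Genes that deliver proteins to the outer segment were lower at 4 of 16 measured, with 0 higher. *Aipl1*, the chaperone of phosphodiesterase 6, had 12.32, 12.38 and 12.14 in WT and 9.29, 9.27 and 9.41 in *E168d2neo/d2neo*, 7.75-fold lower (adjusted p = 7.76e-06), and its second probe fell by 3.70 on the log2 scale. *Reep6* and *Tulp1*, both needed for protein traffic in photoreceptors, fell 6.81-fold and 5.56-fold (adjusted p = 8.05e-05 and 4.86e-05). *Rpgrip1*, which anchors RPGR in the connecting cilium, fell 2.45-fold (adjusted p = 0.000255).

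Lists of the ciliary machinery that photoreceptors share with other cells had 1 or 2 calls each, all lower. Of 13 measured genes of the connecting cilium 2 were lower, of 16 genes of intraflagellar transport 1, and of 12 BBSome genes 1, with medians of -0.26, -0.25 and -0.42. Over all tested genes 2.75% were called lower. At an unadjusted p under 0.05 in limma these lists held 6, 3 and 5 genes lower and 3, 0 and 0 higher, in the same order. BBSome genes summed to 8594, 8005 and 8192 in WT and to 5159, 4850 and 4918 in *E168d2neo/d2neo*. The largest change was at *Fam161a*, a microtubule-binding protein of the connecting cilium, which fell from 9.80, 9.56 and 9.55 to 6.21, 6.55 and 6.33, 9.65-fold (adjusted p = 7.42e-07). *Bbs5* was the BBSome gene called, 2.24-fold lower (adjusted p = 0.00313). *Nphp4*, of the ciliary transition zone, fell 2.03-fold (adjusted p = 0.00752), a call lost without WT replicate 1, *E168d2neo/d2neo* replicate 2 or *E168d2neo/d2neo* replicate 3. *Ift43*, of the retrograde transport complex, fell 2.05-fold (adjusted p = 0.0025), a call lost without WT replicate 2 or *E168d2neo/d2neo* replicate 1. Of 11 genes of motile cilia 2 were lower. *Ccdc113*, of that list, was undetected on all 3 *E168d2neo/d2neo* arrays and fell at least 5.27-fold (adjusted p = 3.72e-05), and *Dnaic1*, a dynein chain, fell 3.44-fold (adjusted p = 0.0346), a call lost without any 1 of the 6 arrays.

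**Figure D4:**
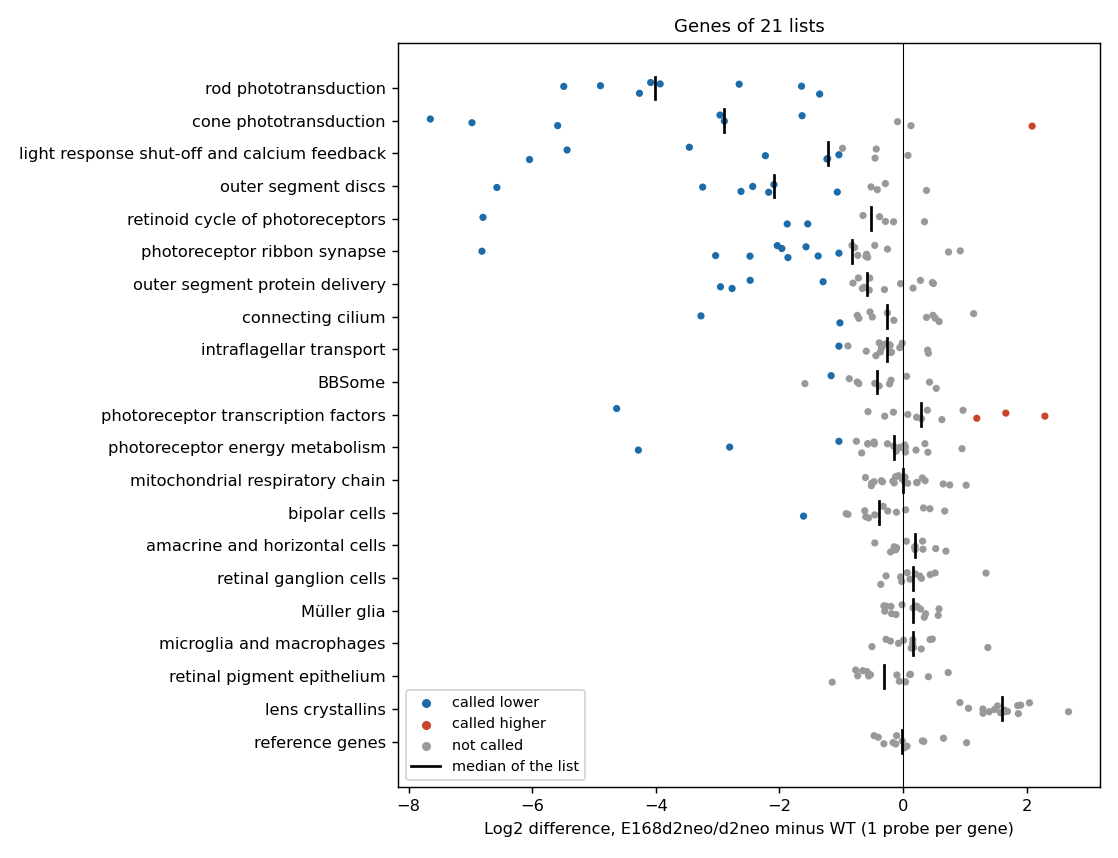
Log2 difference between E168d2neo/d2neo and WT (x axis) of each measured gene in 21 lists (rows), 1 probe per gene, with the median of each list as a black bar. Called genes lie mostly in the upper rows, from rod phototransduction to the ribbon synapse, while the lists of other retinal cells hold 1 call, and lens crystallins sit near 1.60 without a call.

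Among the photoreceptor transcription factors the changes went both ways, with 1 called lower and 3 called higher of 13 measured. Over all tested genes the shares were smaller, at 2.75% lower and 1.47% higher. Counting each member with an unadjusted limma p below 0.05, 6 rose and 2 fell. *Esrrb*, an orphan nuclear receptor of rods, had 12.29, 12.15 and 11.92 in WT and 8.03, 7.21 and 7.21 in *E168d2neo/d2neo*, 24.8-fold lower (adjusted p = 7.61e-05). *Rxrg*, the retinoid X receptor of cones, rose from 6.16, 7.19 and 8.09 to 9.51, 9.32 and 9.49, 4.90-fold (adjusted p = 0.00314), and kept its call without any 1 array. *Samd7*, a repressor of photoreceptor genes, rose 3.16-fold (adjusted p = 0.0388), and *Neurod1* at least 1.16-fold (adjusted p = 0.0317), since no WT array detected it. The calls of *Samd7* and *Neurod1* were lost without WT replicate 1, WT replicate 2, *E168d2neo/d2neo* replicate 2 or *E168d2neo/d2neo* replicate 3, and that of *Neurod1* also without WT replicate 3. With the replicate number as a block both also lost their calls, at unchanged log2 differences of 1.66 and 1.19, and the 6-array fit kept none of the 3 rises.

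Energy metabolism and housekeeping genes were mostly not called. Of 21 measured genes of photoreceptor energy metabolism 3 were lower and 0 higher, against 2.75% and 1.47% of all tested genes. *Nxnl2*, the rod-derived cone viability factor 2 of the thioredoxin-like family, had 12.46, 12.55 and 12.43 in WT and 8.37, 8.19 and 8.02 in *E168d2neo/d2neo*, 19.5-fold lower (adjusted p = 2.81e-06). *Ckmt1*, the mitochondrial creatine kinase, fell 6.99-fold (adjusted p = 4.76e-05). Of 22 genes of the respiratory chain 0 were called in either direction, with a median log2 difference of -0.01, and of 13 reference genes 0 were called by limma, with a median of -0.01. At an unadjusted p under 0.05 the respiratory chain had 2 genes lower and 2 higher and the reference genes 1 and 2. Photoreceptor energy metabolism had 8 lower and 1 higher at that p. Its summed signal was 135100, 147700 and 143000 in WT and 117100, 118300 and 120000 in *E168d2neo/d2neo*. Of all 21971 members 2480 were lower and 2747 higher at that p. Of 17 cytosolic ribosomal protein genes 1 was called, *Rpl3l*, the striated muscle form of RPL3, 9.85-fold lower (adjusted p = 0.000939).

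Of 65 measured genes of inherited retinal disease that the study lists, 26 were lower and 1 was higher, with a median log2 difference of -0.57. The study chose this list with these samples in hand, so its direction is not independent evidence. Beside the genes above it holds *Crb1*, a polarity protein of the outer limiting membrane, which fell 9.47-fold (adjusted p = 0.000137), while its other probe had a log2 difference of 0.15 and was not called. *Unc119*, which carries transducin through the rod, fell 2.05-fold (adjusted p = 0.00133), a call lost by this probe without *E168d2neo/d2neo* replicate 2. The gene that was higher was *Klhl7*.

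Of 10 measured genes of receptor and cyclic nucleotide signalling in photoreceptors 3 were lower and 7 were not called, with a median log2 difference of -0.23. *Drd4*, the dopamine receptor of photoreceptors, had 12.95, 12.92 and 12.84 in WT and 7.53, 7.11 and 7.27 in *E168d2neo/d2neo*, 48.5-fold lower (adjusted p = 4.98e-05). *Ramp3*, which modifies calcitonin-family receptors, fell 5.29-fold (adjusted p = 0.000313), with both other probes of the gene also called lower. *Kcnv2*, the modulatory potassium channel subunit of photoreceptors, fell 7.42-fold (adjusted p = 0.000218), while 19 of 21 measured genes of potassium and HCN channels were not called, and the median of that list was 0.14. *Kcne2*, another channel subunit, was the second call of that list, 15.99-fold lower (adjusted p = 0.00168) and detected on 1 of 3 *E168d2neo/d2neo* arrays. Without *E168d2neo/d2neo* replicate 3 its log2 difference was -4.62.

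Among the other large falls, *Plpp2*, which dephosphorylates lipid phosphates, had 9.83, 10.33 and 9.79 in WT and 4, 5.08 and 4 in *E168d2neo/d2neo* (adjusted p = 2.19e-05). Of its 2 other probes 1 fell by 4.67 on the log2 scale and 1 was not called, at 0.44. *Susd3*, which encodes a membrane protein with a sushi domain, fell at least 25.5-fold (adjusted p = 4.24e-06). *Mpp4*, a scaffold protein of the photoreceptor terminal, fell 28.7-fold (adjusted p = 5.54e-06), with both other probes of the gene also lower.

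The markers of other cells were almost all without a call. Of 15 measured Müller glia genes, 13 of amacrine and horizontal cells, 12 of ganglion cells, 13 of microglia and 13 of vessels, pericytes and astrocytes, 0 were called in either direction by limma. At the shares over all tested genes, 2.75% lower and 1.47% higher, lists of this size would hold few calls. At an unadjusted p under 0.05 these lists held 0, 0, 1, 1 and 4 genes lower and 2, 3, 2, 1 and 1 higher, in the same order. Of all 21971 members 2480 were lower and 2747 higher at that p. Summed signal of the Müller glia genes was 44510, 45700 and 43480 on the WT arrays and 50980, 51920 and 53550 on the *E168d2neo/d2neo* arrays, which did not overlap. Ganglion cell genes also lay higher without overlap, at 18860, 19630 and 19360 in WT and 20000, 20060 and 20970 in *E168d2neo/d2neo*. Genes of vessels, pericytes and astrocytes lay lower without overlap, at 6839, 4598 and 4220 in WT and 4208, 2894 and 3322 in *E168d2neo/d2neo*. The sums of amacrine and horizontal cell genes and of microglia genes overlapped. These sums were not tested, and the brightest genes weigh most in them. Of all members, 11.8% lay lower and 12.4% higher without overlap of the arrays. Of 14 bipolar genes 1 was called, *Sebox*, a homeobox gene, 3.05-fold lower (adjusted p = 0.0224), and its call was lost without WT replicate 2, WT replicate 3 or *E168d2neo/d2neo* replicate 2. Bipolar genes summed to 44350, 43600 and 43060 in WT and to 44430, 36690 and 38080 in *E168d2neo/d2neo*, and 7 of the 14 were lower at an unadjusted p under 0.05. Medians of these lists lay between -0.39 and 0.19. In whole retina, fewer cells of a type and less RNA per cell cannot be told apart, and this holds for every fall given here.

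Stress and glial activation genes showed no common direction. Of 17 genes of gliosis and stress 1 was lower and 1 higher. *Lcn2*, a secreted lipocalin, fell at least 5.20-fold (adjusted p = 7.76e-06), and *Gfap*, the filament protein of reactive glia, had 6.27 ± 0.37 in WT and 6.51 ± 0.24 in *E168d2neo/d2neo*, a log2 difference of 0.24 (adjusted p = 0.53). *Trib3*, a pseudokinase of the unfolded protein response, was the 1 of 15 genes of that list called, lower by 2.52-fold or more (adjusted p = 6.36e-05), and the other probe of the gene, at -0.80, was not. *Cdkn1a*, the cell cycle inhibitor p21, was the 1 of 18 cell death genes called, 2.02-fold higher (adjusted p = 0.00191), a call lost without WT replicate 3 or *E168d2neo/d2neo* replicate 1. *Ier3*, an immediate early gene, fell from 12.07, 12.12 and 11.95 to 8.46, 8.18 and 8.41, 12.9-fold (adjusted p = 1.03e-05), while *Dusp1*, another, rose 2.64-fold (adjusted p = 0.0124).

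Cell cycle and progenitor genes had few calls. Of 16 measured cell cycle genes *Plk1*, a mitotic kinase, was lower by 3.30-fold (adjusted p = 0.000832), and *Bub1b*, of the spindle checkpoint, was higher by 2.04-fold (adjusted p = 0.00773), a call lost without replicate 1 of either genotype, with SAM (significance analysis of microarrays) in place of limma, in a fit of the 6 arrays and with normalization over them. Of 16 progenitor and neurogenic factors 1 was called. *Sox11*, a SOX factor of immature neurons, rose from 8.81 ± 0.15 to 10.01 ± 0.20, 2.29-fold (adjusted p = 0.00183), and its other probe was also higher. Of 12 interferon response genes 0 were called by limma, and 3 were lower at an unadjusted p under 0.05.

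Most of the largest rises lay outside the photoreceptor lists. *Krt73*, a type II keratin known from the hair follicle (chr15:101793304-101802360), was undetected in WT and had 12.36, 12.37 and 12.68 in *E168d2neo/d2neo*, a rise of 175-fold or more (adjusted p = 8.61e-08). Its second probe rose by 4.10 on the log2 scale. Of 12 measured keratins it alone was called higher, and *Krt18*, of simple epithelia, fell 4.86-fold (adjusted p = 0.0137), a call lost without *E168d2neo/d2neo* replicate 3. *Col16a1*, a fibril-associated collagen, had 4.38, 4.29 and 7.37 in WT and 10.22, 11.06 and 11.18 in *E168d2neo/d2neo*, 44.5-fold higher (adjusted p = 0.000605). WT replicate 3 was the 1 WT array that detected it, and without that array its log2 difference went from 5.47 to 6.48. The other 16 measured collagens and laminins were not called.

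*Serping1*, whose protein blocks the start of the complement cascade, rose from 6.33, 6.51 and 6.6 to 10.13, 9.96 and 10.21, 12.3-fold (adjusted p = 6.84e-07), and its other probe rose 9.375-fold. Of the 9 measured complement genes it alone was higher, and *Cfi*, the complement regulator factor I, was lower at -1.10 on the log2 scale (adjusted p = 0.0159), a call lost without WT replicate 1 or *E168d2neo/d2neo* replicate 3, with either other floor (-0.55 with a floor of 32), with arrays scaled to the same mean, with normalization over the 6 arrays, in a fit of these arrays and with SAM. *Slc27a2*, which activates very long chain fatty acids, was undetected in WT and had 7.74, 8.15 and 7.81 in *E168d2neo/d2neo*, a rise of 7.35-fold or more (adjusted p = 0.000107). *Ece1*, the endothelin-converting enzyme, was undetected in WT by its dimmer probe and rose at least 6.37-fold there (adjusted p = 3.11e-06), and 4.66-fold by its brighter probe (adjusted p = 4.98e-05).

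Further rises were *Myocd*, a cardiac and smooth muscle coactivator (10.8-fold, adjusted p = 0.00191), *C2cd4a* (10.9-fold, adjusted p = 0.000304), the connexin gene *Gje1* (8.96-fold, adjusted p = 0.000828) and *Moxd1*, a monooxygenase (8.18-fold, adjusted p = 0.00268). *Arg1*, the arginase of the urea cycle, and *Neo1*, a netrin receptor, were undetected in WT and rose at least 3.47-fold and 3.503-fold (adjusted p = 7.76e-06 and 0.00204). *Nab1*, a corepressor of EGR factors, rose 6.19-fold (adjusted p = 0.00346), and *Sgpp2*, a phosphatase of sphingosine phosphate, rose 4.81-fold (adjusted p = 0.0415), a call kept only without *E168d2neo/d2neo* replicate 1. At 10 of the 15 largest rises WT replicate 3 was the highest WT array, and at 7 of the 15 largest falls it was the lowest. Without this array *Sgpp2* alone of the 15 largest rises lost its call.

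The neighbourhood of *Crx* held a larger share of calls than the rest of the genome. Within 5 Mb of *Crx* 8 of 89 tested genes were lower (8.99%) and 3 were higher (3.37%), against 2.73% and 1.47% of 10925 genes on other chromosomes, and against 2.93% and 1.26% of 239 genes 5 to 20 Mb away. These shares are a description without a test. The genes on either side of *Crx* moved in opposite directions. *Crxos* (chr7:15882617-15904030) fell from 8.07, 8.17 and 7.87 to 5.14, 6.12 and 5.70, 5.21-fold (adjusted p = 0.00027).

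*Obox6* (chr7:15833250-15839679), an oocyte homeobox gene of a family of like sequences whose probe may take up signal of its relatives, had 4, 4 and 6.59 in WT and 9.59, 10.08 and 9.83 in *E168d2neo/d2neo*, a log2 difference of 4.97 (adjusted p = 0.000394). WT replicate 3 was the 1 WT array that detected it, so the difference depends on the floor, at 4.30 with a floor of 32, and it was 5.83 without that array. The other genes called within this distance were *Pnmal1*, *Clasrp*, *Ppm1n*, *Gng8*, *Sympk*, *Pglyrp1* and *Zscan22*, all lower, and *Apoc1* and *Lig1*, higher. All pools of the genotype carry the targeted locus, so the *E168d2* allele, the *neo* cassette and any remaining DNA of the stem cell strain around them cannot be told apart here.

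Against *Crx-/-*, which makes no functional CRX, the *E168d2neo/d2neo* retina differed directly at few probes. Of all tested probes 0.317% (77) were lower and 0.214% (52) were higher than in *Crx-/-* by the same rule. Both genotypes share the WT arrays, so their own differences from WT are set side by side and only the direct contrast is tested. Of the 94 genes of the lists and of the largest changes that were called against WT, 15 were lower and 3 were higher in *E168d2neo/d2neo* than in *Crx-/-*. The 15 were all called for a fall on the same *E168d2neo/d2neo* arrays, so their count is not independent of the choice. With each array of both genotypes left out in turn, 6 of the 15 kept their call every time. The count fell to 7 without *E168d2neo/d2neo* replicate 3, to 9 without *E168d2neo/d2neo* replicate 2 or *Crx-/-* replicate 2, to 11 with the replicate number as a block, and to 3 in a fit of these 6 arrays alone.

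Both subunits of the rod channel, *Cngb1* and *Cnga1*, and 3 subunits of phosphodiesterase, *Pde6g*, *Pde6h* and *Pde6c*, were among them. *Cngb1* had 13.42 ± 0.10 in WT, 12.35 ± 0.15 in *Crx-/-* and 9.34 ± 0.10 in *E168d2neo/d2neo*, 8.04-fold lower than in *Crx-/-* (log2 difference -3.01, SE 0.14, adjusted p = 5.6e-06). *Pde6g* was 3.37-fold lower than in *Crx-/-* (adjusted p = 0.00137), and *Pde6h*, still detected on all 3 *Crx-/-* arrays at 7.92 ± 0.15, was at least 9.04-fold lower (adjusted p = 0.000336). *Cnga1* and *Pde6c* were 2.91-fold and 2.51-fold lower (adjusted p = 0.0475 and 0.0224). Both calls were lost without a detection filter, in the 6-array fit, with the replicate block and without *E168d2neo/d2neo* replicate 2, *E168d2neo/d2neo* replicate 3 or any 1 *Crx-/-* array, and that of *Cnga1* also with either other floor.

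*Grk1* had 6.01 ± 0.34 in *Crx-/-*, a log2 difference of -0.42 from WT (adjusted p = 0.358), and was at least 2.41-fold lower in *E168d2neo/d2neo* (adjusted p = 0.0083). *Rdh12*, *Cabp4* and *Drd4* were 5.20-fold, at least 4.09-fold and 7.23-fold lower than in *Crx-/-* (adjusted p = 0.0083, 0.00811 and 0.0224). The call of *Drd4*, whose *Crx-/-* arrays had an SD of 1.23, was lost without *Crx-/-* replicate 1, *E168d2neo/d2neo* replicate 2 or *E168d2neo/d2neo* replicate 3, and those of *Cabp4* and *Grk1* without *E168d2neo/d2neo* replicate 3. *Fam161a* and *Aipl1* were 2.61-fold and 2.68-fold lower (adjusted p = 0.00345 and 0.0083).

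The 3 genes that were higher than in *Crx-/-* were also higher than in WT. *Slc27a2* had 7.90 ± 0.22 in *E168d2neo/d2neo* and 4.74 ± 0.34 in *Crx-/-*, where 1 of 3 arrays detected it, with a log2 difference of 3.16 (SE 0.37, adjusted p = 0.00345). *Krt73* was 4.23-fold and *Serping1* 3.15-fold above *Crx-/-* (adjusted p = 0.00638 and 0.0126). Other large changes did not pass the direct test. *Gnat1* had a log2 difference of 0.30 between both mutants (SE 0.66, adjusted p = 0.931), *Esrrb* of -0.19 (SE 0.42, adjusted p = 0.928) and *Obox6* of -0.41 (SE 0.57, adjusted p = 0.873), with standard errors that leave room for differences of either sign.

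**Figure D5:**
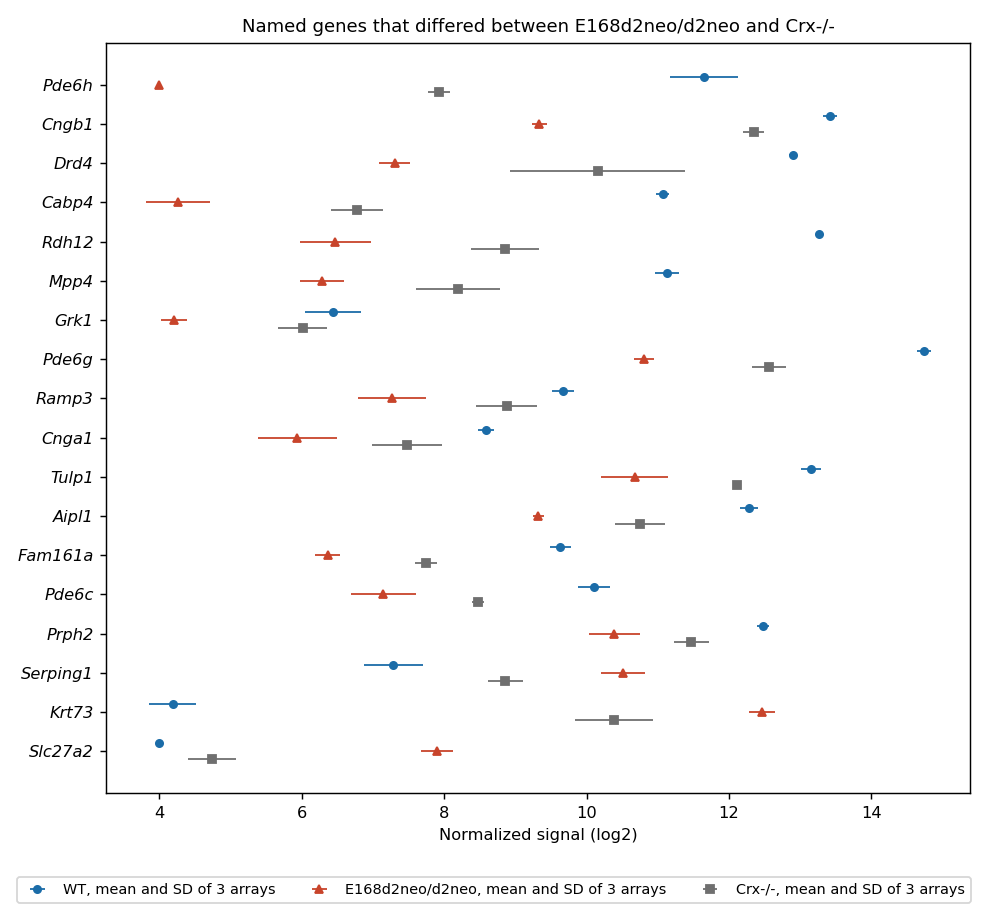
Normalized log2 signal (x axis), mean and SD of 3 arrays, in WT (circles), E168d2neo/d2neo (triangles) and Crx-/- (squares) for the 18 named genes that were called against WT and differed between both mutants. At 15 genes E168d2neo/d2neo lies below Crx-/-, with Cngb1 at 9.34 against 12.35, and at 3 genes above.

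The core that CRX binds was looked for in the promoters as a description. The letters TAATCC, or GGATTA for the other strand, were searched in RefSeq promoter windows (GRCm38.p6) of 300 bases, 250 before and 50 after each gene's start, and 9585 of the 11914 tested genes had a window. The letters were found in 41 of 265 genes called lower (15.5%), 8 of 137 called higher (5.84%) and 7.44% of all tested genes. By list, 7 of 15 ribbon synapse genes held them, 5 of 8 genes of shut-off and calcium feedback, 2 of 5 rod phototransduction genes and 0 of 10 genes of outer segment discs. The genes with the largest falls did not stand out, since 1 of the 11 with a window held the letters (*Mpp4*), and of the largest rises 0 of 10. A match does not show binding, and its absence from a window says nothing of sites elsewhere.

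The 160 bases before the start of 7 genes are shown because they place the letters, in capitals, beside the values above. They belong to *Crx* itself and to genes that fell by 1.63 to 4.84 on the log2 scale. All 7 were shown because they hold the letters. They do not stand for the genes called lower, of which 41 of 265 held them. The stretches are chr7:15879956-15880115 for *Crx*, chr8:95306586-95306745 for *Cngb1*, chr11:72037510-72037669 for *Aipl1*, chr1:59161637-59161796 for *Mpp4* and chr17:47400607-47400766 for *Guca1a*, all on the minus strand. Those of *Nxnl2* (chr13:51170865-51171024) and *Gnat2* (chr3:108092906-108093065) lie on the plus strand. *Crx* and *Cngb1* hold 2 matches each in this stretch and the other 5 genes hold 1. The matches begin 94 and 21 bases before the start in *Crx*, 58 and 25 in *Cngb1*, 53 in *Aipl1*, 23 in *Mpp4*, 57 in *Guca1a*, 152 in *Nxnl2* and 19 in *Gnat2*.
Crx: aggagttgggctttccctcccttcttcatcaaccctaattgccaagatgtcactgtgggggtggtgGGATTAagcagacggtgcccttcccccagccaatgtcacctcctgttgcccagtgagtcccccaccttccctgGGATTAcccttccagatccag
Cngb1: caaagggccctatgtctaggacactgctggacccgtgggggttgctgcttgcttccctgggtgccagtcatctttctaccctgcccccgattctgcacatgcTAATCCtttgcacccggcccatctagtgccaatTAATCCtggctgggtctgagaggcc
Aipl1: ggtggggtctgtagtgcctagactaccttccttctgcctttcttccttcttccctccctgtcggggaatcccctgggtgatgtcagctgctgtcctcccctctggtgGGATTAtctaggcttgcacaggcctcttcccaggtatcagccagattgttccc
Mpp4: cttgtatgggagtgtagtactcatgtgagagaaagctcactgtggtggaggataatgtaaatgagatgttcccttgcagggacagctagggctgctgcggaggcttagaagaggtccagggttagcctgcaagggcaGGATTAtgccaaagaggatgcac
Guca1a: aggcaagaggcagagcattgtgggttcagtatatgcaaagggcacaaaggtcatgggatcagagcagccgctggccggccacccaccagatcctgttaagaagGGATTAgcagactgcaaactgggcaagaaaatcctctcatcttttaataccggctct
Nxnl2: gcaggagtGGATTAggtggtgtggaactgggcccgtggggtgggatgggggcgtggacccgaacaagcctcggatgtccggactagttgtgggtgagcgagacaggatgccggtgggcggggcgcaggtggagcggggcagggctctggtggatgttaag
Gnat2: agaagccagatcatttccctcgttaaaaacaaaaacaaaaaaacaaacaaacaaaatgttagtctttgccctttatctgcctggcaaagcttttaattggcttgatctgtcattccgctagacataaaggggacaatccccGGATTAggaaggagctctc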

How the data were processed

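The authors hybridised labelled retinal RNA to Illumina MouseWG-6 v2.0 bead arrays and deposited background-subtracted signal intensities per probe, not normalized between arrays, from GenomeStudio (version not given in the sources used here). A deposited detection p-value per probe compares it with the negative controls of its array. A second deposited table holds the same intensity values times 1 factor per array, with probe identifiers in another order, and served only as a check of values.

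Signals of the 12 arrays were quantile normalized on the linear scale, a floor of 16 was applied, and values were put on the log2 scale. The authors' software gives no bead counts here, so the number of arrays limits the precision. Probes detected (p under 0.05) on at least 1 of 12 arrays, 24311 in all, were fitted with limma 3.58.1 in R 4.3.3, with 1 coefficient per genotype and no block, and p was adjusted by Benjamini-Hochberg over all of them. The other steps ran in Python 3.11.15 with pandas 2.3.3 and numpy 2.4.6, and the fit was tested on simulated data. An exact permutation test of 3 against 3 arrays cannot go below p = 0.1 (two-sided). All p-values measure the spread between pools.

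Where no array of a genotype detected a probe, the fold is a bound against the mean of each array's lowest detected log2 signal, or the probe's own where higher. A gene with several probes was read by the brightest for lists and by the largest change among the 15 largest falls and rises. The platform table named 34885 probes by 1 gene, and 18 by several, a further 44 took a name from the study's tables, which list only genes the study called, and 10334 have none or are left unnamed here. A total of 1 gene is not reported here, and its probe stayed in the fit without a name. Symbols were updated and sequences and positions taken from RefSeq GRCm38.p6, and the primers are the study's own.

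Named were the 15 largest falls and 15 largest rises called without overlap of arrays, *Crx*, the genes the study names, and up to 4 called members of each of 39 lists, or the 2 brightest where none was called. The text leaves out some of these, and names further list members and neighbours of *Crx* that were chosen after their values were seen. The members, lists and rules were chosen with earlier results of these data known. Replicate numbers come from the sample labels, which state no shared litter or day. Deviations from the genotype mean had correlations of 0.313, 0.177 and 0.101 between same-numbered arrays of both genotypes. Between arrays of different number they were -0.293 to 0.290. Only the pair of replicate 1 lay above that range, so these values do not settle a pairing by number. A fit with the replicate number as a block was run as an alternative. A total of 17 alternatives were tried.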

Additional observations from a re-analysis of the deposited data

How the results depend on the processing

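The probes lower numbered 545 and lay between 369 and 641 in the 17 alternatives, within 1.5 times throughout. The probes higher numbered 376 and moved more, to 189 with normalization over the 6 arrays, 610 with arrays scaled to the same mean, 246 with a floor of 32, 216 without a detection filter, 176 with a fit of the 6 arrays, 203 with SAM and 691 without replicate 1 of both genotypes (chosen after seeing the data). Leaving out 1 array gave 458 to 641 probes lower and 244 to 791 higher. Scaling to the same mean moved the median of all probes to 0.10 and the share of calls that were lower from 59.2% to 41.8%. With the replicate block there were 549 and 341, and it ended 2 of the 86 calls of named genes against WT, *Samd7* and *Neurod1*. Of these calls 13 were lost in a fit of the 6 arrays, 12 with normalization over them, 10 without a detection filter, 8 with SAM, 7 with a floor of 8, 5 with a floor of 32, 5 with arrays scaled to the same mean and 7 to 10 with 1 array left out. *Cfi*, *Dhrs3*, *Neurod1*, *Nphp4*, *Rom1*, *Samd7* and *Bub1b* were among the calls lost with normalization over the 6 arrays and in the fit of these arrays. The genes lower than in *Crx-/-*, 15 in all, numbered 9 without a detection filter, 3 in a fit of the 6 arrays of both genotypes and 7 to 14 with 1 array left out. The cause of these moves was not tested. Among uncalled genes the sign turned with arrays scaled to the same mean at *Atp5b* (-0.16), *H2-D1* (0.14), *Rgr* (0.0043) and *Tuba1b* (-0.25), and without replicate 1 of both genotypes at *Cryba1* (-0.83), *Crybb3* (-0.43), *Rgr* (0.15) and *Slc17a6* (-0.01). With 1 array left out, log2 differences ranged from -1.04 to 3.05 at *Cryba1*, -0.48 to 3.12 at *Crybb3*, -0.30 to 0.049 at *Gnb3*, -0.13 to 0.063 at *H2-D1*, -0.19 to 0.17 at *Rgr*, -0.084 to 0.18 at *Slc17a6*, -0.15 to 0.82 at *Ttr* (the latter without replicate 1 of both genotypes) and -0.039 to 0.19 at *Tuba1b*. Where an arm kept 2 arrays, the fit pooled the spread over all genotypes.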
